A study of Mus musculus with 6 samples.

Results

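The genes described here encode the enzymes of cholesterol synthesis and the proteins that sense, take up, move and esterify cholesterol in the cell, in cumulus-oocyte complexes treated with the MTOR inhibitor Torin1 or with its solvent DMSO. Members were listed by name, 20 synthesis enzymes and 13 genes of SREBP control, uptake, trafficking, esterification and the LXR receptors. Of these 33 genes, 29 were measured among 22180 genes in all, 18 of them synthesis enzymes and 11 of the other kinds. Acat2, Soat1 and Nr1h2 had no probe set naming them and Idi1 shared its probe set with another gene, so these 4 are not analysed here.

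A cumulus-oocyte complex is an oocyte with the somatic cumulus cells that surround it. Torin1 samples 1, 2 and 3 were complexes cultured in 5 µM Torin1, which blocks the kinase MTOR at its ATP site, and DMSO samples 1, 2 and 3 were cultured with the solvent alone, labelled with the same 5 µM. All came from wildtype female mice that had received 5 IU of equine chorionic gonadotropin for 46 h, and all medium held milrinone at 5 µM, which blocks the oocyte phosphodiesterase and holds meiosis. For every sample the labels also give bovine serum albumin (BSA) at 3 mg/ml. About the age of the mice the labels give 21 days in 1 field and 23 days in another, and about the culture 14 h and 16 h; groups of 100 complexes were cultured, and nothing says whether the sets came from separate mice or days. The p-values therefore reflect the spread among these arrays alone, which may be technical. RNA was taken from whole complexes, whose oocytes the labels call transcriptionally silent and whose cumulus cells they call active, so fewer cells of a type and less RNA per cell cannot be told apart.

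Cholesterol is built from acetyl-CoA through mevalonate, isoprenoid diphosphates, squalene and lanosterol, by enzymes of the cytosol and the endoplasmic reticulum. The transcription factors SREBP1 and SREBP2 activate these enzyme genes after SCAP escorts them to the Golgi, a step that INSIG proteins block when sterols are plentiful, and LXR receptors respond to oxidised sterols. In mammalian cells the MTOR complex MTORC1 is known to promote SREBP activity. Mouse oocytes are known to make little cholesterol themselves, and their cumulus cells express the pathway and supply it.

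Torin1 was followed by lower transcript levels along most of the synthesis pathway. Calls were fewer among the genes that control, import or move cholesterol. Of the 18 synthesis enzymes 14 were called lower and 0 higher, with 4 left uncalled, against 6.94% of all genes called lower and 5.13% called higher. A call is an adjusted p below 0.05 in limma, over all genes, on the scale log2(intensity + 1), which all levels and changes below share. At an unadjusted p below 0.05, limma had 14 enzymes and 5 other members lower and 0 enzymes and 1 other member higher, against 2813 lower and 2515 higher of all 22180 genes. The median change of the synthesis enzymes was -1.08, that of the other 11 members was -0.08, and that of all genes was 0.01. Among these 11 members 2 were called lower (Srebf2 and Npc2) and 0 higher, with 9 left uncalled. The share called lower was 18.2%, above the 6.94% of all genes. In 14 of the 18 synthesis enzymes every Torin1 value lay below every DMSO value, which was so for 14.3% of all genes, and these were the 14 called lower. Among the other 11 members 5 lay wholly lower in Torin1 and 1 wholly higher. Of all genes 28.6% had groups without overlap in either direction. Whether the enzymes and the other members differ in their response was not tested.

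The call of 9 enzymes, namely Mvk, Pmvk, Mvd, Fdps, Lss, Cyp51, Tm7sf2, Msmo1 and Nsdhl, held in each of 14 alternative settings, including leaving out any 1 array. Without DMSO 3 the count of enzymes called lower was 9 in place of 14. DMSO 3 had the highest of the 3 DMSO values in 15 of the 18 enzymes and DMSO 1 the lowest in 12. Among Torin1 samples, sample 2 was highest in 13 enzymes and sample 3 lowest in 9. Over all genes, log2 differences between Torin1 sample 3 and Torin1 samples 1 and 2 had an SD of 0.327 and 0.35, against 0.204 between samples 1 and 2 and 0.212 to 0.24 among DMSO samples. Without Torin1 sample 3 the number of enzymes called lower was still 14, and 2 other members were lower.

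The labelled cell types were both present. Beside the marker counts that follow, 6.94% of all genes were called lower and 5.13% higher. All 15 oocyte markers had a change above 0, with a median of 0.21 and 2 called higher, and their summed intensity ran from 7880 to 8730 in Torin1 arrays and from 7120 to 7540 in DMSO arrays. Of 14 measured cumulus and granulosa markers 11 were called lower and 1 higher, with a median change of -1.34 (from -4.0 to 2.06), against -1.08 for the enzymes, and with summed intensities of 4410 to 4950 in Torin1 arrays and 7330 to 7510 in DMSO arrays. Markers of other ovarian cells were dimmer as sums: 117 to 137 in Torin1 arrays and 470 to 597 in DMSO arrays for 5 theca markers (2 called lower, Acta2 and Ptch1, while Cyp17a1 was at 2.87 ± 0.06 in Torin1 and 2.82 ± 0.13 in DMSO; SD, n = 3 each), and 109 to 123 against 93.9 to 109 for 8 leukocyte markers (1 called higher, Cd68). The sums were 145 to 266 in Torin1 arrays and 98.2 to 105 in DMSO arrays for 6 endothelial markers (1 called higher, Cdh5), and 106 to 158 in Torin1 arrays and 150 to 162 in DMSO arrays for 6 surface epithelium markers (0 called; limma found 2 at an unadjusted p below 0.05). The part of these marker shifts in the falls described here was not tested.

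Promoters of the members were searched for known motifs as a description, without a test. RefSeq promoter windows of build GRCm38.p6, from 250 bases before to 50 after each start, were available for 15 of the 18 measured enzymes and 9 of the 11 other members. The box CCAAT, bound by NF-Y, a factor known to act beside SREBP, was found on either strand in 15 of 15 enzyme genes, or 100%. It was found in 6 of 9 other members (66.7%), in 44.1% of the 1244 genes called lower with a promoter and in 41.6% of all 16990 tested genes with one. The 12 enzymes called lower and the 3 not called, Ggps1, Dhcr7 and Lbr, all held it, so its presence did not separate them.

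The sterol response element written TCACNCCAC was found in 1 enzyme promoter, that of Hmgcs1 (6.67% of 15, against 1.43% of all tested genes), and in 0 of the 9 other members. Its shorter form CACNCCAC, which lies within it, was found in Hmgcs1 and Insig1 and in 7.18% of tested genes. The GC box GGGCGG was found in 86.7% of enzyme genes and 77.8% of the other members, against 69.4% of genes called lower and 49.5% of tested genes. The E-box CACGTG was found in 20% of enzyme genes and 22.2% of the other members, against 11.3% of genes called lower and 9.19% of tested genes. The short direct repeat that was searched was found in 0 members and 0.053% of tested genes. Its copies lay closer together than in the repeat that LXR binds, so the presence of LXR sites was not tested. Genes with several listed starts had more chances of a match; a match is a match of letters and not a measured site.

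Sequences of 6 promoters are shown as the 250 bases before the start, 5′ to 3′ in the direction of the gene, with CCAAT boxes (ATTGG on the opposite strand) and the sterol response element in capitals. Hmgcs1 is shown as the holder of the element TCACCCCAC, with 3 CCAAT boxes, at chr13:119690101-119690350 on the plus strand. Mvk, among the members that fell most, had 5 boxes, the most of any member with a promoter in the table (chr5:114444019-114444268, plus strand). Nsdhl had 2 in this stretch (chrX:72918271-72918520, plus strand). Srebf2, the transcription factor gene that fell, had 1 (chr15:82147019-82147268, plus strand). Ggps1, with 3 boxes (chr13:14063489-14063738, minus strand), and Lbr, with 2 (chr1:181842402-181842651, minus strand), are shown as enzymes that were not called.
Hmgcs1: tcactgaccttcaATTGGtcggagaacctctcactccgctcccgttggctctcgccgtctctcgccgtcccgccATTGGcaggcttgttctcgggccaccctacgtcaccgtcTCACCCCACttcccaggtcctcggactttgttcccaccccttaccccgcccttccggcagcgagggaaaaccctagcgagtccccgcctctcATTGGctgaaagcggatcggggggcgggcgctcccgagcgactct
Mvk: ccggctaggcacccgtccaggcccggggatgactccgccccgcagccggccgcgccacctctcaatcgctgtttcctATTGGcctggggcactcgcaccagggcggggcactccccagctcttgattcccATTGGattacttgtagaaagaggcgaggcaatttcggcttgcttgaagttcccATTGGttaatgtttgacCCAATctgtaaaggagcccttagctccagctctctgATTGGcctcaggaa
Nsdhl: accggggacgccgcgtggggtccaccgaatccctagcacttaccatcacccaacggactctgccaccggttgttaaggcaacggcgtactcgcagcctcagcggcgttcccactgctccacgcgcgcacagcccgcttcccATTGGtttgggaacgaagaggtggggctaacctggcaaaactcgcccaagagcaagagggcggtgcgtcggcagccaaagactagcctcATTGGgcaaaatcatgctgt
Srebf2: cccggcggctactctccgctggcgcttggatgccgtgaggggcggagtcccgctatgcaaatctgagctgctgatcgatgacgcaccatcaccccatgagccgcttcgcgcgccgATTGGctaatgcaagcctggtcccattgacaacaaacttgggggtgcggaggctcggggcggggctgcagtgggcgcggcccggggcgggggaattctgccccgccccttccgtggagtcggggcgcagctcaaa
Ggps1: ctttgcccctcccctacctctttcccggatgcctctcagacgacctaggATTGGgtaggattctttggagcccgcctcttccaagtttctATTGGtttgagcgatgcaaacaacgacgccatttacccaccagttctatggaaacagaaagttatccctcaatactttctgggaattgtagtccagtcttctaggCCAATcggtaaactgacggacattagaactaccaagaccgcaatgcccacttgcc
Lbr: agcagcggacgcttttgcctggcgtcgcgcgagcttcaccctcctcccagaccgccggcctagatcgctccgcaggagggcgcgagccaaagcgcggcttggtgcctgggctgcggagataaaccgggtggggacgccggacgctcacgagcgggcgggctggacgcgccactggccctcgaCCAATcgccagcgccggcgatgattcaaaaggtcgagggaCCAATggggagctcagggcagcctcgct

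**Figure D1:**
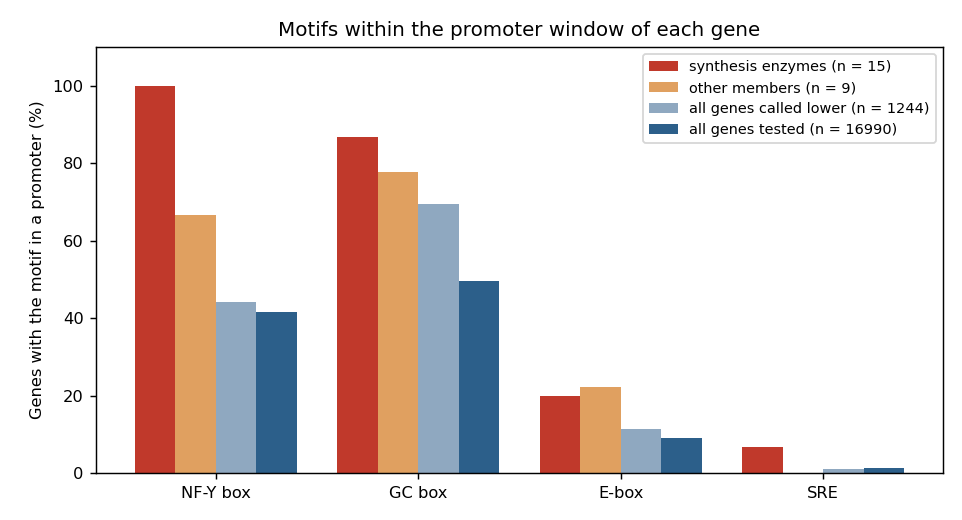
Share of genes (y axis, %) whose promoter window held each motif, for the measured synthesis enzymes, the other members, all genes called lower and all genes tested, with the number of genes that had a promoter in the table. The NF-Y box stood in 100% of the 15 enzyme genes and 41.6% of all tested genes.

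The first steps, which make and activate mevalonate, were called lower in all 4 measured genes, against 6.94% of all genes. Mvk, the mevalonate kinase gene, was at 5.22, 5.48 and 5.28 in Torin1 samples 1, 2 and 3, against 7.14, 7.41 and 7.54 in DMSO samples 1, 2 and 3. The groups were well apart, and the change of -2.04 ± 0.12 (SE; adjusted p = 0.000218) put the Torin1 level at 24.4% of that in DMSO. Hmgcs1, whose product condenses acetyl-CoA units into HMG-CoA, was at 7.43, 7.56 and 7.28 in Torin1 and 7.84, 8.06 and 8.11 in DMSO. Its fall was smaller, at -0.58 ± 0.11 (SE; adjusted p = 0.0159), although the groups did not overlap either. The call of Hmgcs1 was lost without Torin1 1, DMSO 2 or DMSO 3 (adjusted p from 0.0532 to 0.068).

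Pmvk, which adds the second phosphate to mevalonate, was at 4.51, 4.61 and 3.85 in Torin1 and 5.61, 5.53 and 6.04 in DMSO. Its change was -1.40 ± 0.23 (SE; adjusted p = 0.00864), with the lowest value in Torin1 sample 3. Mvd, the decarboxylase that yields isopentenyl diphosphate, was at 5.62, 5.60 and 5.85 in Torin1 and 6.64, 7.22 and 7.50 in DMSO. The Torin1 samples of Mvd lay close together and the DMSO samples were spread, and the change was -1.43 ± 0.21 (SE; adjusted p = 0.0061).

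At the isoprenoid branch the measured genes gave different values. Fdps, the farnesyl diphosphate synthase gene whose product feeds both sterols and protein prenylation, fell about as far as Mvk. It was at 6.24, 6.75 and 6.21 in Torin1 and 8.24, 8.49 and 8.64 in DMSO, a change of -2.06 ± 0.17 (SE; adjusted p = 0.000612). By size of fall Fdps and Mvk were 65th and 67th of the 22180 genes, and without Torin1 3 their order turned (-1.96 for Fdps and -2.01 for Mvk). Ggps1, which extends farnesyl to geranylgeranyl diphosphate for protein prenylation, was at 6.56, 6.80 and 6.07 in Torin1 and 6.74, 6.30 and 6.59 in DMSO. Its groups overlapped and it was not called, at -0.07 with a 95% interval of -0.54 to 0.40 (adjusted p = 0.917). The sign of the Ggps1 change turned without Torin1 3 or DMSO 1, at 0.13 and 0.031.

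Between farnesyl diphosphate and lanosterol, the first enzyme was not called and the following enzymes were lower. Fdft1, the squalene synthase gene, stood at 9.12, 9.23 and 9.17 in Torin1 and 9.19, 9.29 and 9.32 in DMSO. Its groups overlapped, and the change of -0.09 had a 95% interval of -0.27 to 0.08 (adjusted p = 0.57); neither the Lss nor the Sqle change lies in that interval. Sqle, the squalene monooxygenase gene of a rate-limiting step, was at 7.45, 7.42 and 6.81 in Torin1 and 7.88, 8.13 and 8.36 in DMSO. It fell by 0.90 ± 0.20 (SE; adjusted p = 0.0298), and the call was lost without DMSO 2 or DMSO 3 (adjusted p = 0.0927 and 0.106) and with a pseudocount of 16 (0.0577).

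Lss, the lanosterol synthase gene, was at 3.88, 4.32 and 3.63 in Torin1 and 5.54, 5.68 and 5.93 in DMSO. Its change was -1.77 ± 0.19 (SE; adjusted p = 0.00162). The Torin1 mean of 3.94 lay below the median of all genes, 4.14, where values are dim and the size of a fall is uncertain.

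Of the 9 measured genes that turn lanosterol into cholesterol 7 were called lower, against 6.94% of all genes. Cyp51, the lanosterol demethylase gene, was at 4.64, 5.15 and 4.84 in Torin1 and 6.04, 5.85 and 6.39 in DMSO (change -1.22 ± 0.18, SE; adjusted p = 0.00574). Msmo1, the methylsterol monooxygenase gene, was at 5.82, 6.0 and 5.63 in Torin1 and 6.78, 6.92 and 7.13 in DMSO (change -1.13 ± 0.13, SE; adjusted p = 0.00219). Nsdhl, which encodes the dehydrogenase of the same demethylation, was at 7.35, 7.46 and 6.83 in Torin1 and 8.31, 8.59 and 8.59 in DMSO. None of these groups overlapped, and Nsdhl fell by 1.28 ± 0.17 (SE; adjusted p = 0.00449). Its promoter is among those printed above.

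Hsd17b7, the ketoreductase gene of that demethylation, was at 4.89, 5.22 and 5.36 in Torin1 and 5.72, 5.76 and 5.99 in DMSO. The change of -0.67 ± 0.14 (SE; adjusted p = 0.0228) was smaller, and it was not called without Torin1 2 or any 1 of the DMSO samples (adjusted p from 0.0538 to 0.0855). Ebp, a sterol isomerase gene, was at 4.58, 5.14 and 4.05 in Torin1 and 5.92, 5.65 and 6.10 in DMSO. The Torin1 values of Ebp had an SD of 0.55, its change was -1.30 ± 0.27 (SE; adjusted p = 0.0215), and it was not called without Torin1 1, DMSO 1 or DMSO 3 (adjusted p from 0.0674 to 0.0856). Sc5d, a sterol desaturase gene, averaged 6.68 ± 0.24 in Torin1 and 7.23 ± 0.08 in DMSO (SD, n = 3 each). Its change was -0.55 ± 0.13 (SE; adjusted p = 0.0325), and the call was lost without Torin1 1 or any 1 DMSO sample (adjusted p from 0.0642 to 0.116).

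The sterol reductases differed in their calls. Tm7sf2, which encodes a reductase of the sterol nucleus, was at 4.42, 4.54 and 4.92 in Torin1 and 5.43, 5.77 and 5.77 in DMSO, a change of -1.03 ± 0.16 (SE; adjusted p = 0.00677). Lbr, the lamin B receptor gene, encodes an inner nuclear membrane protein with the same reductase activity. It was at 6.49, 6.96 and 6.53 in Torin1 and 6.60, 6.44 and 6.56 in DMSO, so the groups overlapped, and the change was 0.13 (95% interval -0.19 to 0.44; adjusted p = 0.695). Without Torin1 2 the change of Lbr was -0.022. Dhcr7, whose product makes cholesterol in the last reduction, was at 6.37, 6.55 and 6.84 in Torin1 and 6.56, 6.69 and 7.06 in DMSO, with overlapping groups and a change of -0.18 (95% interval -0.58 to 0.21; adjusted p = 0.635).

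**Figure D2:**
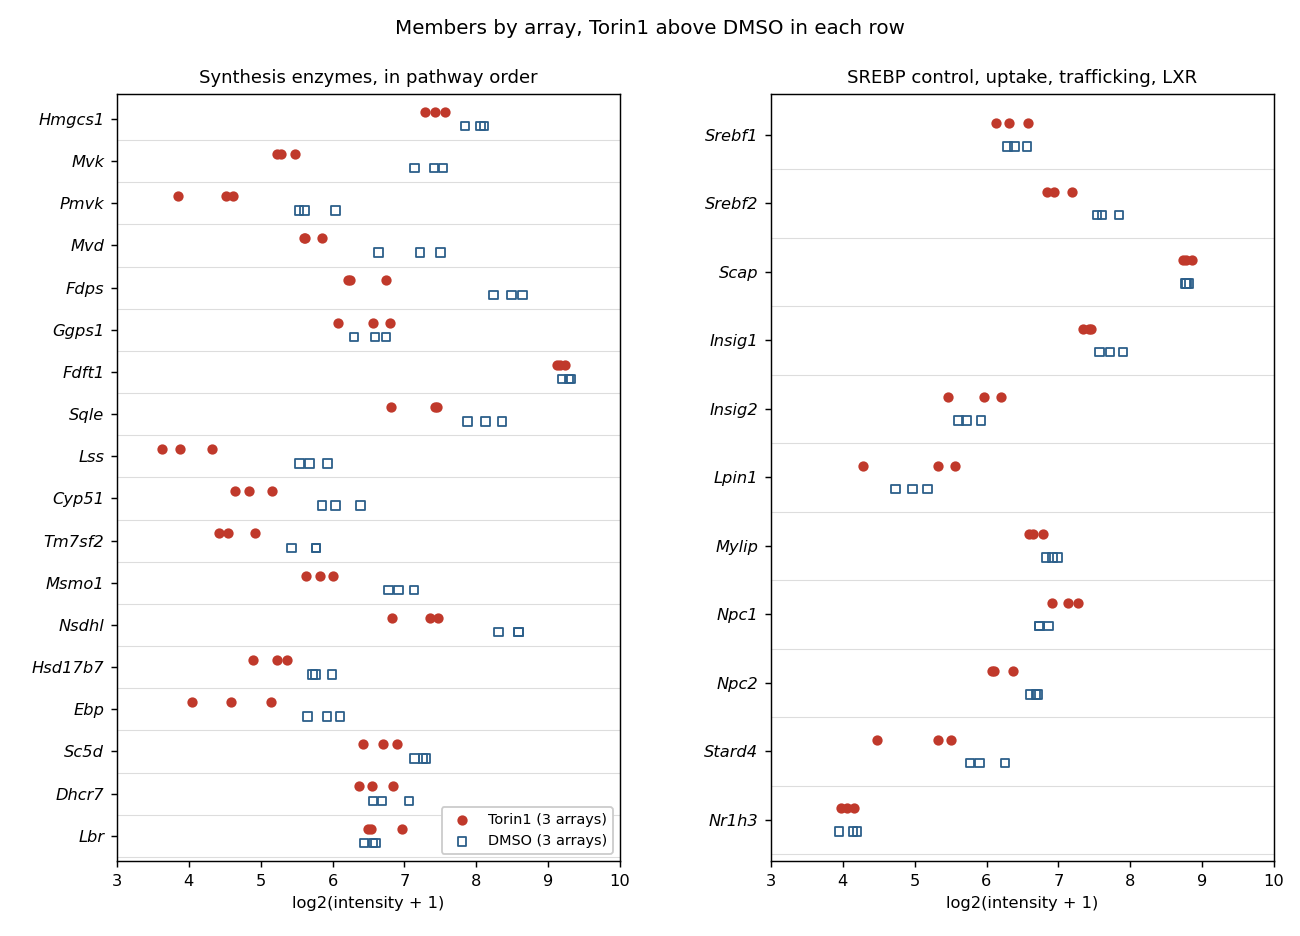
Level of each measured member on every array (x axis, log2(intensity + 1)), with the 3 Torin1 arrays as filled circles above the 3 DMSO arrays as open squares. In the left panel 14 of the 18 synthesis enzymes have all Torin1 values below all DMSO values; in the right panel the groups of 5 of the 11 genes overlap.

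Among the genes of SREBP control, Srebf2 was lower and the other 5 were not called. That is 1 of 6 genes, or 16.7%, against 6.94% of all genes called lower. Whether the list differs from all genes was not tested. Srebf2, the gene of SREBP2, which mainly drives cholesterol synthesis, was at 6.94, 7.19 and 6.84 in Torin1 and 7.61, 7.54 and 7.84 in DMSO. The groups did not overlap, and it fell by 0.68 ± 0.12 (SE; adjusted p = 0.0137), to 62.6% of DMSO. That call was lost without Torin1 1 or DMSO 3 (adjusted p = 0.0523 and 0.0518). Srebf1, the gene of SREBP1, which mainly drives fatty acid synthesis, was at 6.31, 6.57 and 6.13 in Torin1 and 6.29, 6.39 and 6.56 in DMSO. Its groups overlapped, the change was -0.08 (95% interval -0.38 to 0.23; adjusted p = 0.835), and without Torin1 3 it was 0.029.

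Scap, the SREBP escort gene, was at 8.80 ± 0.06 in Torin1 and 8.79 ± 0.03 in DMSO (SD, n = 3 each), and the 95% interval of its change ran from -0.16 to 0.17 (adjusted p = 0.987). Insig1, a retention factor gene that is itself a known SREBP target, was at 7.34, 7.46 and 7.42 in Torin1 and 7.90, 7.57 and 7.72 in DMSO. The groups of Insig1 did not overlap, but the change of -0.32 ± 0.10 (SE) was not called (adjusted p = 0.0932) unless arrays were quantile normalized again (adjusted p = 0.0388). Insig2, the other retention factor gene, was at 5.96, 6.20 and 5.47 in Torin1 and 5.72, 5.61 and 5.92 in DMSO. Its groups overlapped and it was not called, at 0.13 (95% interval -0.31 to 0.57; adjusted p = 0.794), with -0.034 without Torin1 2.

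Lpin1 encodes a phosphatidate phosphatase that MTORC1 is known to keep out of the nucleus, where it lowers SREBP activity. It was at 5.33, 5.56 and 4.28 in Torin1 and 4.73, 4.97 and 5.18 in DMSO. Torin1 samples 1 and 2 lay above all DMSO samples and sample 3 below them. The change was 0.10 ± 0.32 (SE; adjusted p = 0.924), and it ranged from -0.15 without Torin1 2 to 0.49 without Torin1 3 (adjusted p = 0.0807 at the lowest), so no direction can be given for Lpin1.

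The genes of lysosomal cholesterol export gave opposite signs. Npc2, whose soluble product hands cholesterol to NPC1 in the lysosome, was at 6.11, 6.08 and 6.37 in Torin1 and 6.61, 6.71 and 6.69 in DMSO. It fell by 0.48 ± 0.10 (SE; adjusted p = 0.0194) with no overlap, but the call was lost on leaving out any 1 array except Torin1 3 (adjusted p from 0.0527 to 0.0782). Npc1, the membrane partner, was at 6.91, 7.14 and 7.27 in Torin1 and 6.73, 6.74 and 6.86 in DMSO. The groups of Npc1 did not overlap, yet the change of 0.33 ± 0.11 (SE) missed the threshold (adjusted p = 0.1). Leaving out Torin1 1 gave 0.43 with a call (adjusted p = 0.0481). Npc1 and Scap each had a dimmer probe set besides the one used, with changes of 0.07 and -0.04.

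Stard4, which encodes a cytosolic sterol carrier and is a known SREBP target, was at 5.32, 5.51 and 4.47 in Torin1 and 5.77, 5.90 and 6.26 in DMSO. Its change of -0.88 ± 0.27 (SE) was not called (adjusted p = 0.0909). The Torin1 SD was 0.55, with sample 3 far below samples 1 and 2, and without Torin1 3 the change was -0.56 (adjusted p = 0.0598). With Torin1 samples 2 and 3 averaged to 1 sample, because their descriptions share a short name, it was called (adjusted p = 0.024). Mylip, a ubiquitin ligase gene induced by LXR that degrades lipoprotein receptors, was at 6.59, 6.65 and 6.79 in Torin1 and 6.99, 6.83 and 6.92 in DMSO. The groups were close without overlapping, and the change of -0.24 ± 0.09 (SE) was not called (adjusted p = 0.146). Nr1h3, the gene of the receptor LXR alpha, was dim, at 4.06 ± 0.09 in Torin1 and 4.10 ± 0.13 in DMSO (SD, n = 3 each; adjusted p = 0.898), both below the median of all genes.

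**Figure D3:**
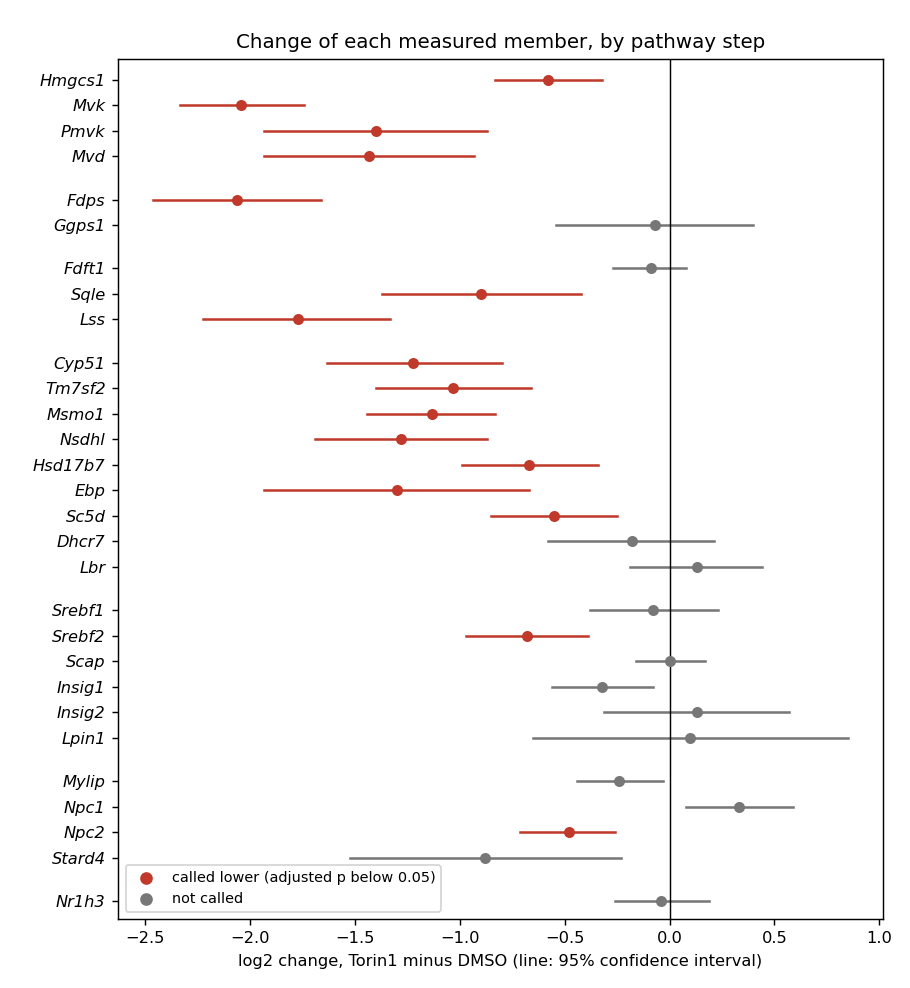
Log2 change of each measured member (x axis, Torin1 minus DMSO) with its 95% confidence interval, in pathway order from the top, grouped by step. The 16 genes called lower are red, from Fdps at -2.06 to Npc2 at -0.48, and the 13 not called are grey.

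Partner genes were also compared within arrays, for 5 pairs chosen after their values were seen. Srebf2 relative to Srebf1 was lower in all 3 Torin1 arrays than in any DMSO array, and the log2 ratio changed by -0.60. Likewise the ratio changed by -0.82 for Npc2 over Npc1, by -1.99 for Fdps over Ggps1 and by -1.68 for Lss over Fdft1, each without overlap of the groups. These 4 pairs had p = 0.1 in the exact two-sided permutation test, the smallest value that 3 against 3 arrays allow (0.125 when adjusted over the 5 pairs). Because the pairs were chosen by their values, the test cannot decide whether partners differ, and the adjustment does not correct for that choice. Insig1 over Insig2 changed by -0.45 with overlapping groups (exact permutation p = 0.2, also after adjustment). An unequal change within arrays does not show which gene of a pair moved.

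Genes next to the pathway were followed in 8 further lists, a few of whose genes are shared. Fatty acid synthesis genes known to respond to SREBP1 had 7 of 17 measured called lower, against 6.94% of all genes, with a median of -0.51. In that list 0 were called higher (0 also at an unadjusted p below 0.05 in limma), against 5.13% of all genes. Fads2 and Fads1, the desaturase genes of polyunsaturated fatty acids, changed by -2.10 ± 0.13 and -1.34 ± 0.14, and Acaca and Fasn, which form palmitate, by -0.93 ± 0.12 and -0.67 ± 0.10 (SE; adjusted p from 0.000229 to 0.00792). Each of these 4 kept its call in every alternative setting.

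Genes of SREBP processing and INSIG turnover went both ways, with 4 of 11 called lower, 2 higher and 5 not called (median -0.14). Of all genes 6.94% were called lower and 5.13% higher. Pgrmc1, which encodes a membrane protein that binds SCAP and INSIG, was at 6.87, 7.10 and 6.77 in Torin1 and 7.77, 7.72 and 7.78 in DMSO, a change of -0.84 ± 0.10 (SE; adjusted p = 0.00246). Erlin2, of a membrane complex that restrains SREBP, fell by 0.58 ± 0.09 (adjusted p = 0.00668). Fbxw7, whose ubiquitin ligase degrades nuclear SREBP, was higher by 0.54 ± 0.10 (adjusted p = 0.0159), and Syvn1, an endoplasmic reticulum ubiquitin ligase gene, by 0.46 ± 0.10 (adjusted p = 0.0292). Fbxw7 was not called without DMSO 2 or DMSO 3, nor Syvn1 on leaving out any 1 array except Torin1 3 (adjusted p up to 0.0698 and 0.0973).

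Of 12 other sterol-responsive or accessory genes 3 were called lower, against 6.94% of all genes, with a median of 0.03. In that list 0 were called higher (0 also at an unadjusted p below 0.05 in limma), against 5.13% of all genes. Cyb5a, the cytochrome b5 gene that donates electrons to sterol and fatty acid oxidation, was at 6.52, 6.45 and 7.14 in Torin1 and 8.29, 8.08 and 8.22 in DMSO, a change of -1.50 ± 0.18 (SE; adjusted p = 0.003). Fabp5, a fatty acid binding protein gene, and Acat1, the mitochondrial acetoacetyl-CoA thiolase gene, changed by -0.80 ± 0.17 and -0.46 ± 0.10 (adjusted p = 0.0274 and 0.0258). Fabp5 was not called on leaving out any 1 array except Torin1 3, nor Acat1 except without Torin1 3 or DMSO 2 (adjusted p up to 0.0958 and 0.0982).

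Efflux and LXR target genes held 3 lower, 1 higher and 9 not called among 13 (median -0.02), against 6.94% lower and 5.13% higher of all genes, to which the 1 higher is near. Abca1, the transporter gene that exports cholesterol to lipoproteins, was at 6.65, 6.84 and 7.50 in Torin1 and 5.80, 5.80 and 5.98 in DMSO. It rose by 1.14 ± 0.21 (SE; adjusted p = 0.0142) and was not called without DMSO 1 or DMSO 2 (adjusted p up to 0.0561). Abca2, Smpdl3a and Pltp changed by -0.83 ± 0.18, -0.88 ± 0.20 and -0.58 ± 0.14 (adjusted p from 0.0269 to 0.0366). Pltp was dim, with means of 3.63 in Torin1 and 4.21 in DMSO, and its change was -0.29 with a pseudocount of 16. Each of the falls was lost in 4 of the 6 leave-outs, Abca2 without Torin1 1 or any 1 DMSO sample, Smpdl3a without DMSO 3 or any 1 Torin1 sample, and Pltp without Torin1 1, Torin1 2, DMSO 2 or DMSO 3 (adjusted p up to 0.102, 0.0956 and 0.129).

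Ester hydrolysis and lipid droplet genes held 1 lower and 1 higher among 10 (median -0.20), near the 6.94% and 5.13% of all genes. Lipa, the lysosomal acid lipase gene that frees cholesterol from lipoprotein esters, was at 4.73, 4.96 and 4.53 in Torin1 and 5.59, 5.49 and 6.0 in DMSO, a change of -0.96 ± 0.16 (SE; adjusted p = 0.0111). Dgat1, which esterifies diglyceride, rose by 0.65 ± 0.16 (adjusted p = 0.0454) and was not called without Torin1 1 or any 1 DMSO sample (adjusted p up to 0.145), nor with arrays centred on their medians.

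Genes of sterol transport between membranes held 1 lower (6.67%, near the 6.94% of all genes) and 2 higher among 15 (median 0.05). Of all genes 5.13% were called higher. Osbpl5, a gene of the oxysterol binding protein family, was at 4.07, 4.46 and 4.27 in Torin1 and 6.01, 5.81 and 5.60 in DMSO, a change of -1.54 ± 0.14 (SE; adjusted p = 0.000822) kept in every setting. Gramd1b, which carries plasma membrane cholesterol to the endoplasmic reticulum, rose by 0.64 ± 0.14 (adjusted p = 0.0249), and Osbp by 0.37 ± 0.09 (adjusted p = 0.0333). Gramd1b was not called without Torin1 1 or any 1 DMSO sample, nor Osbp on leaving out any 1 array except Torin1 3 (adjusted p up to 0.0888 and 0.1) or with arrays centred on their medians (0.0788) or an intensity trend in the variance (0.0549).

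Among 14 genes that use isoprenoids for prenylation, dolichol or ubiquinone 1 was called lower (7.14%, near the 6.94% of all genes). In that list 0 were called higher (1 at an unadjusted p below 0.05 in limma), against 5.13% of all genes. The 1 called lower was the ubiquinone gene Coq2, dim at 3.18 ± 0.18 in Torin1 and 3.81 ± 0.19 in DMSO (SD, n = 3 each; adjusted p = 0.0224). Coq2 was not called without DMSO 2 or DMSO 3 (adjusted p up to 0.0894). Genes that turn cholesterol into steroid hormones held 1 lower and 2 higher among 9 (median 0.05), where 1 is near the 6.94% of all genes called lower and 5.13% of all genes were called higher. Fdx1, the electron donor of mitochondrial steroid enzymes, rose by 1.97 ± 0.12 and Star, which delivers cholesterol to mitochondria, by 0.50 ± 0.08, while Hsd17b1, an estradiol-forming enzyme gene, fell by 1.70 ± 0.14 (SE; adjusted p from 0.000229 to 0.00861). Star was dim, at 4.18 ± 0.05 in Torin1 and 3.68 ± 0.10 in DMSO (SD, n = 3 each), and its change was 0.25 with a pseudocount of 16.

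**Figure D4:**
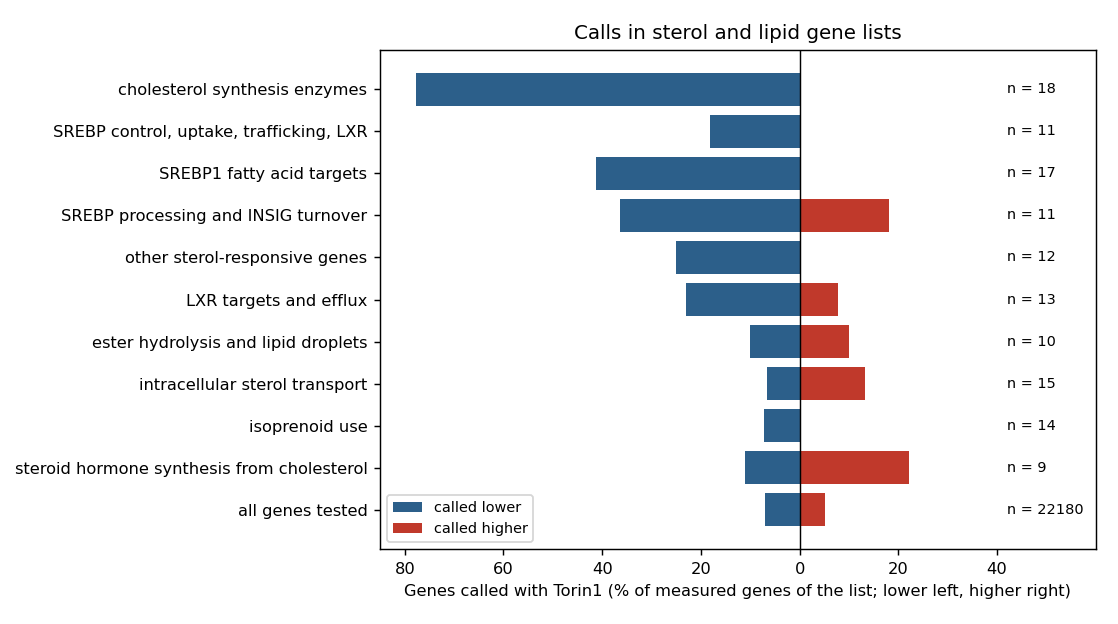
Share of measured genes called lower (bars to the left) and higher (bars to the right) with Torin1, in % of each list, with the number of measured genes at the right; the lowest row is all genes tested. Synthesis enzymes have 14 of 18 genes called lower, against 6.94% of all genes, and the other members 2 of 11.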

How the data were processed

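The deposited values are intensities, 1 per probe set and array, made by the authors. The tools named are RMA, GCOS and, in version 1.1, Affymetrix Expression Console, per the submitters' processing notes. The settings and the probe set build were not given in the sources used here. The intensities are linear, from 2.25 to 3267.7 with array medians of 11.12 to 11.97. RMA normalizes arrays to each other, so a change is relative to other transcripts. The number of arrays limits precision, and no detection call per probe set was used.

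Of 41345 probe sets 23521 named 1 gene, 1814 named several and 16010 were unnamed here. Entrez identifiers of 23328 matched RefSeq of GRCm38.p6, with 0 symbols changed. The brightest probe set was kept for each of 1082 genes with several, giving 22180 genes.

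Torin1 was compared with DMSO on log2(intensity + 1), which understates changes of dim genes, by limma 3.58.1 in R 4.3.3 (lmFit, eBayes, two-sided, no covariate), with Benjamini-Hochberg adjustment over all genes. The fit was tested on simulated data. Samples were grouped by title. Alternatives were a pseudocount of 16, a filter on dim genes, means of probe sets, further normalization, median centring, an intensity trend, a replicate block, leaving out each array and averaging Torin1 samples 2 and 3. All members are named; of each further list up to 4 called genes with the largest change are named, and marker genes named singly were chosen after their values were seen. The members and lists were chosen with earlier results of these data known. Motifs were searched with Python 3.11.15, and their shares among tested genes and genes called lower were added after the data were seen.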

Additional observations from a re-analysis of the deposited data

How the results depend on the processing

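Of 405 recomputed member values in 14 alternative settings, 356 kept their direction and their side of the threshold; 9 of the 16 called members did so in every setting. Leaving out single arrays gave 9 to 14 enzymes called lower (9 without DMSO 3), a median of -1.18 to -1.01 for them, 0 to 2 other members called lower, 0 to 1 called higher and a median of -0.19 to -0.03 for the other members. With a pseudocount of 16 the enzyme median was -0.87, since a larger pseudocount shrinks changes of dim genes, and 13 were called; Sqle, Fabp5, Pltp, Smpdl3a and Dgat1 then missed the threshold. Members not called changed sign on leaving out single arrays, from -0.23 to 0.13 for Ggps1, -0.022 to 0.21 for Lbr, -0.19 to 0.029 for Srebf1, -0.03 to 0.03 for Scap, -0.034 to 0.33 for Insig2, -0.15 to 0.49 for Lpin1 and -0.11 to 0.014 for Nr1h3. Scap was also below 0 with the mean of probe sets (-0.017), after quantile normalization (-0.025) and after median centring (-0.032); the cause was not tested. Over all genes, 2678 were called, 1518 without DMSO 3, 1730 without DMSO 1, 1763 without DMSO 2 and 1565 with the replicate block. The filter on dim genes kept 11504 genes and dropped Nr1h3. Same-numbered Torin1 and DMSO samples did not deviate together (correlations of -0.207, -0.299 and -0.148). Differently numbered samples had correlations from -0.115 to 0.31, and whether any samples were paired is not known. With the replicate block, which joins same-numbered samples, 10 enzymes and 0 other members were called lower. Hmgcs1, Sqle, Ebp, Sc5d, Srebf2 and Npc2 then missed the threshold (adjusted p from 0.0549 to 0.0946). Of the named genes of the further lists, Lipa, Osbp, Abca2, Acat1, Coq2, Dgat1, Fabp5, Fbxw7, Pltp, Smpdl3a and Syvn1 also missed it with the replicate block (adjusted p from 0.0533 for Lipa to 0.131 for Osbp). In the bases before the start alone, the enzyme shares were 100% for the NF-Y box and 6.67% for the sterol response element, against 38.7% and 1.22% of tested genes.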
